A study of Homo sapiens with 4 samples.

Results

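Matrix metalloproteinases (MMPs) and the tissue inhibitors of metalloproteinases (TIMPs) were followed in anaplastic thyroid cancer (ATC) cells before and after selection with paclitaxel. Members were chosen by gene name: MMP1, MMP2, MMP3, MMP7, MMP9, MMP10, MMP13, MMP14, TIMP1 and TIMP3, which are 10 of the 26485 gene names in the deposited tables. The tables list 28 MMP and TIMP genes in all, and the other 18 are described after the members. SW1736 and 8505C are established human lines derived from ATC, an undifferentiated thyroid carcinoma. SW1736 wt and 8505C wt, the parental lines, are sensitive to paclitaxel. SW1736-PTX and 8505C-PTX were obtained from them by raising paclitaxel, a taxane that stabilizes microtubules, from 1 nM to 1.5 µM over 6 months, and were kept in 1.5 µM of the drug. One mRNA library was sequenced per condition, so each resistant line is represented by a single selected culture and the 2 lines are not replicates of each other.

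MMPs are zinc-dependent endopeptidases that are made as inactive precursors and cleave proteins of the extracellular matrix and of the cell surface. The collagenases MMP1 and MMP13 cut fibrillar collagen, the stromelysins MMP3 and MMP10 cut many matrix proteins and can activate other MMPs, and the gelatinases MMP2 and MMP9 digest denatured collagen and basement membrane collagen. MMP7, or matrilysin, is a small secreted enzyme, whereas MMP14 is anchored in the plasma membrane and activates the MMP2 precursor. TIMPs bind the active site of MMPs, and TIMP3 is the one held in the matrix. All values below are mRNA levels, which do not give the activity of these enzymes.

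The depth of the libraries, from the ratio of the deposited coverage to FPKM, lay between 43.5 M and 57.9 M reads, and in both lines the PTX library was the deeper one. FPKM is the number of aligned fragments per kilobase of transcript, scaled to the aligned fragments of the library. The change of a gene was log2((PTX + 0.1)/(wt + 0.1)) of its FPKM values, so that changes of low genes are understated. A gene was compared when either library of the pair exceeded 0.5 FPKM, and it was called up-regulated or down-regulated when this log2 change was beyond 1.5, a 2.83-fold ratio. The median change of all genes compared was 0.01 in SW1736 and 0.11 in 8505C. A single library stood for each condition, so differences are given without a test or a p-value, and how far cultures of 1 condition differ was not measured.

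The library labelled SW1736-PTX resembled 8505C wt more than its own parental line. Across 14692 genes, which are not independent replicates and share their libraries, Pearson's r on log2(FPKM + 0.1) was 0.873 with 8505C wt and 0.767 with SW1736 wt. SW1736-PTX was closest to the other resistant library, 8505C-PTX, with r of 0.933. For 8505C-PTX and 8505C wt r was 0.877, and between the wt libraries it was 0.845. Thyroid transcription factors that separate the wt libraries moved in the same way. PAX8 was at 38.2 FPKM in parental SW1736, 0.206 in SW1736-PTX, 0.123 in parental 8505C and 0.146 in 8505C-PTX, while NKX2-1 was listed at 0 in parental SW1736 and at 36.3, 30.5 and 39.0 FPKM in the other libraries in that order. KRT19, an epithelial keratin, was at 266 FPKM in parental SW1736, 0.535 in SW1736-PTX and 0 in both 8505C libraries. TSHR and SLC5A5, which help to define the differentiated thyroid cell, were listed at 0 in every library, and TG did not exceed 0.00586 FPKM. Of the leukocyte markers, PTPRC, CSF1R, ITGAM and CD3E were at or below 0.0393 FPKM everywhere, while CD68 was between 5.84 and 43.0 and CD14 between 0.576 and 4.5. Of the fibroblast markers, DCN, LUM, PDGFRA and FAP did not exceed 0.274 FPKM, but COL1A1 (153) and COL1A2 (104) were high in SW1736 wt and PDGFRB was at 6.08 and 6.49 in the PTX libraries against 0.402 and 0.0922 in the wt libraries. The endothelial markers PECAM1 and VWF did not exceed 0.281 FPKM, and CDH5 was at 55.9 in 8505C wt. The epithelial keratins KRT8 and KRT18 were at or above 257 FPKM, whereas EPCAM and CDH1 did not exceed 0.0806. The part of these markers in the results was not tested. The part of this similarity in the changes reported for SW1736 was not tested, so each called member is also given against 8505C wt.

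Of the 10 members, 7 were above 0.5 FPKM in at least 1 library: 3 in parental SW1736, 6 in SW1736-PTX and 7 in both 8505C libraries. In SW1736, 6 members were compared; MMP1, MMP3 and TIMP3 were up-regulated and MMP14 was down-regulated, beside 15.7% of all compared genes up-regulated and 10.2% down-regulated (25.9% in all). MMP1, MMP3 and TIMP3 passed the FPKM limit only through the PTX library, so they could be compared only because they were high there. In 8505C, 7 members were compared; MMP2 and TIMP3 were up-regulated and none was down-regulated, beside 15.0% and 5.89% of all compared genes (20.9% in all). TIMP3 was the member called in both lines, and 7.37% of the 13304 genes compared in both lines were up-regulated in both. The median log2 change of the compared members was 1.75 in SW1736 and 0.58 in 8505C.

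**Figure D1:**
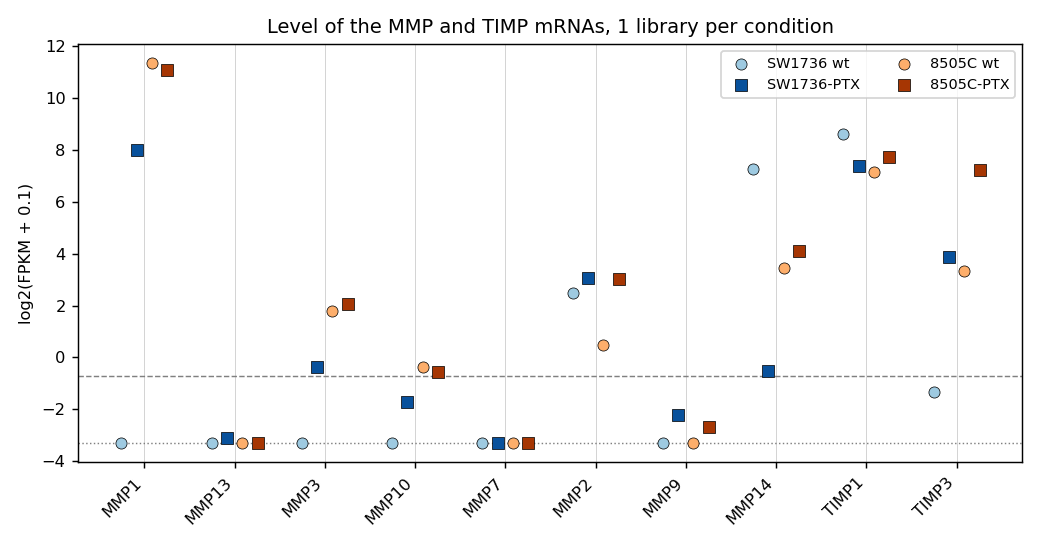
Level of the 10 members in the 4 libraries, as log2(FPKM + 0.1) on the y axis, with 1 point per library; circles are wt and squares are PTX cells. The dashed line marks 0.5 FPKM and the dotted line a listed value of 0; MMP1 is absent from SW1736 wt and lies far above every other member in both 8505C libraries.

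MMP1, MMP3, MMP7, MMP10 and MMP13 lie in the MMP cluster of chromosome 11, all on the minus strand (hg38). For MMP7 and MMP10, which share this cluster and of which MMP7 was at 0 everywhere, the promoter stretch is shown from RefSeq on GRCh38.p14, from base -120 to base -1 of the transcript start. MMP7 is at chr11:102530748-102530867 and MMP10 at chr11:102780629-102780748. Capitals mark TGANTCA, which is the AP-1 core TGAGTCA with any base allowed at its centre, and TATAAA, the TATA box letters.
MMP7: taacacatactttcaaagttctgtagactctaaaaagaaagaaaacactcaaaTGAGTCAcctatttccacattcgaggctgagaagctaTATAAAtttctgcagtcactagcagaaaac
MMP10: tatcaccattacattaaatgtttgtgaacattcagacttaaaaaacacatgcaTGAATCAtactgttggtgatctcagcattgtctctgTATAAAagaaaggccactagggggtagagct
Both motifs were at nearly the same place in the 2 promoters: TGANTCA began at -67 in each, and TATAAA at -30 in MMP7 and -31 in MMP10. MMP7 carried TGAGTCA, whereas MMP10 carried TGAATCA, which differs from the AP-1 core at the central base. On either strand of the 35116 promoters of 250 bases before to 50 after the start, TGANTCA was found in 7.71%, TGAGTCA (one of its forms) in 4.95% and TATAAA in 11.5%. Of the 28 MMP and TIMP genes, 15 had an entry, among them 5 of the members; TGANTCA was found in MMP7, MMP10 and MMP20, and TATAAA in those and in MMP8, MMP21 and MMP26. MMP14, TIMP1 and TIMP3 had neither letter string in this window. Entries were not given for MMP1, MMP2, MMP3, MMP9 and MMP13. A match describes the letters only.

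MMP1, the interstitial collagenase, was the member with the widest range (chromosome 11, 102789910 to 102798235, minus strand; 10 exons in its MANE transcript of 1971 bp). It was listed at 0 in parental SW1736, with 254 FPKM in SW1736-PTX, 2629.6 in parental 8505C and 2173 in 8505C-PTX. Both 8505C libraries were thus the highest, where MMP1 ranked 6 and 20 among all gene names, against 237 in SW1736-PTX. The level in SW1736-PTX was at least 8164-fold higher than that of 3 reads on this transcript in SW1736 wt (0.0311 FPKM), and the log2 change was 11.31. In 8505C the change was -0.28 and was not called. With 8505C wt as the reference, MMP1 was lower in SW1736-PTX, with a log2 difference of -3.37. WTAPP1, which overlaps MMP1 on the other strand, did not exceed 0.326 FPKM.

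MMP3 and MMP10, the stromelysins, flank MMP1 and, like it, were at 0 in parental SW1736 and higher in both 8505C libraries than in SW1736-PTX, at far lower levels. MMP3 (102835797 to 102843611) was listed at 0 in parental SW1736, with 0.666 FPKM in SW1736-PTX, 3.33 in parental 8505C and 4.09 in 8505C-PTX. These correspond to about 70, 265 and 399 reads, with Poisson 95% intervals of 54.6 to 88.4, 234 to 299 and 361 to 440. The level in SW1736-PTX was at least 19.8-fold above that of 3 reads in SW1736 wt, with a log2 change of 2.94, whereas the change in 8505C was 0.29 and was not called. Against 8505C wt, MMP3 in SW1736-PTX was lower, with a log2 difference of -2.17. The call in SW1736 was lost with a pseudocount of 0.5, where the change was 1.22.

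MMP10 (102770502 to 102780628) was listed at 0 in parental SW1736, with 0.202 FPKM in SW1736-PTX, 0.665 in parental 8505C and 0.568 in 8505C-PTX. About 21, 51 and 54 reads lay behind the last 3 values, with intervals of 13 to 32.1, 38 to 67.1 and 40.6 to 70.5, so those of the 8505C libraries overlapped. In SW1736, MMP10 stayed below 0.5 FPKM and was not compared, and in 8505C its log2 change was -0.19. Of the windows of 75 bases in the MANE transcripts, 1.31% of those of MMP10 were also found in MMP3, so a small part of their reads could not be placed on 1 gene. No other pair of the 27 MMP and TIMP transcripts shared a window of this length.

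The remaining members of the cluster were at or near 0. MMP13, the collagenase that also cuts cartilage collagen, was listed at 0.0169 FPKM in SW1736-PTX, about 3 reads (interval 0.619 to 8.77), and at 0 in the other 3 libraries. MMP7 was listed at 0 in all 4 libraries, where 3 reads would have given between 0.0463 and 0.0616 FPKM. MMP7 and MMP13 thus could not be compared in either line.

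The cluster holds 9 MMP genes within 435 kb, from MMP7 to MMP13. All 9 were listed at 0 in SW1736 wt, 5 were above 0 in SW1736-PTX, and MMP7, MMP8, MMP20 and MMP27 were at 0 in every library. MMP12, the macrophage elastase, lies 76.8 kb from the start of MMP1; it was at 0, 0.0245, 0.32 and 1.13 FPKM in SW1736 wt, SW1736-PTX, 8505C wt and 8505C-PTX. The genes flanking the cluster were present in every library. TMEM123 was at 108, 114, 146 and 123 FPKM across the libraries in this order, and DCUN1D5 at 5.48, 2.89, 6.25 and 2.57. Of the 6 flanking genes above 0.5 FPKM in at least 1 library, BIRC3, an inhibitor of apoptosis, was called, from 1.14 to 3.54 FPKM in SW1736 with a log2 change of 1.56.

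**Figure D2:**
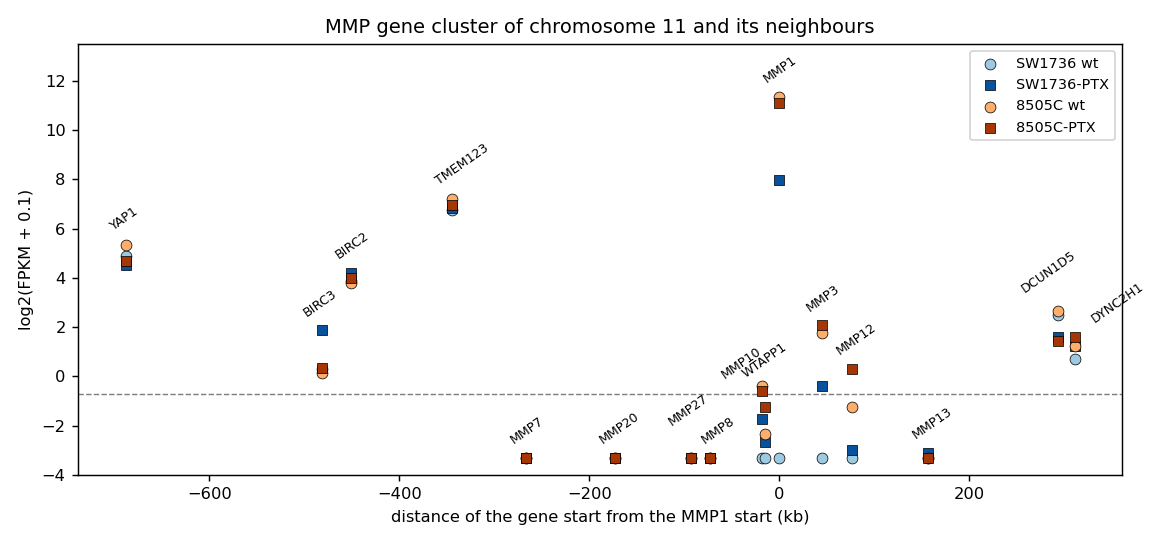
Levels along the MMP cluster of chromosome 11, as log2(FPKM + 0.1) against the distance of each gene start from the MMP1 start in kb, with 1 point per library and the dashed line at 0.5 FPKM. MMP1 and its neighbours MMP10, MMP3 and MMP12 differed between libraries, the MMP genes on the MMP7 side were at 0 in every library, and the flanking genes were expressed in all 4.

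The gelatinases differed in level. MMP2 (chromosome 16, 55478830 to 55506691, plus strand) was at 5.49 FPKM in parental SW1736, 8.18 in SW1736-PTX, 1.29 in parental 8505C and 8.01 in 8505C-PTX. The PTX libraries were thus close to each other, with a log2 difference of -0.03, and 8505C wt was the lowest. MMP2 was up-regulated in 8505C, 6.2-fold with a log2 change of 2.54, but had a change of 0.57 in SW1736. Against 8505C wt, SW1736-PTX was higher by 2.57 on the log2 scale. MMP9 (chromosome 20, 46008908 to 46016561) was listed at 0 in both wt libraries and at 0.117 FPKM in SW1736-PTX and 0.057 in 8505C-PTX. These are about 16 and 7 reads (intervals 9.15 to 26.0 and 2.81 to 14.4), and no comparison was made at this depth.

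MMP14, the membrane-type MMP that activates the MMP2 precursor, was the member down-regulated in SW1736 (chromosome 14, 22836533 to 22847599, plus strand; transcript of 3701 bp in 10 exons). It was at 154 FPKM in parental SW1736, 0.589 in SW1736-PTX, 10.7 in parental 8505C and 17.3 in 8505C-PTX, so SW1736 wt was the highest and SW1736-PTX the lowest. About 27879 reads in SW1736 wt and 126 in SW1736-PTX lay behind the first pair. The ratio of wt to PTX was 261 in SW1736, with a log2 change of -7.81, while in 8505C the PTX library was 1.62-fold higher, a change of 0.69 that was not called. MMP14 was also lower in SW1736-PTX than in 8505C wt, with a log2 difference of -3.97. It was the called member whose level in SW1736-PTX lay outside the range of the wt libraries on the low side.

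TIMP1, a secreted inhibitor of most MMPs, was abundant throughout (chromosome X, 47582291 to 47586791, plus strand). It was at 389 FPKM in parental SW1736, 166 in SW1736-PTX, 143 in parental 8505C and 213 in 8505C-PTX, and more than 98% of gene names were below it in every library. Its log2 changes were -1.22 in SW1736 and 0.58 in 8505C, and neither was called. With a threshold of 1 it would have been down-regulated in SW1736. SYN1, on the other strand around TIMP1, did not exceed 0.21 FPKM.

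TIMP3, the matrix-bound inhibitor, was up-regulated in both lines (chromosome 22, 32800816 to 32863041, plus strand; transcript of 4597 bp in 5 exons). It was at 0.297 FPKM in parental SW1736, 14.4 in SW1736-PTX, 10.0 in parental 8505C and 150.4 in 8505C-PTX. SW1736-PTX was thus near 8505C wt, and 8505C-PTX was higher than any other library. The ratio of PTX to wt was 48.5 in SW1736 and 15.0 in 8505C, with log2 changes of 5.19 and 3.89. Against 8505C wt, the difference of SW1736-PTX was 0.52 and was not called. SYN3, which spans TIMP3 on the other strand, did not exceed 0.0265 FPKM.

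Set against the parental lines, the level of 6 of the 7 members above 0.5 FPKM was nearer in SW1736-PTX to 8505C wt than to SW1736 wt on the log2 scale, the exception being MMP2. The same held for 10 of the 17 MMP and TIMP genes above 0.5 FPKM in any library. It also held for 56.0% of all 14692 genes and for 67.3% of the 2583 genes that differed between the wt libraries by more than 1.5. Between the wt libraries, 7 members were compared. MMP1, MMP3, MMP10 and TIMP3 were higher in 8505C wt, and MMP2 and MMP14 were lower. Of all genes, 7.73% were higher and 9.92% lower (17.6% in all). MMP1, MMP3, MMP10 and TIMP3 passed the FPKM limit only through 8505C wt, so they could be compared only because they were high there. The log2 differences were 14.68 for MMP1, 5.10 for MMP3, 2.94 for MMP10, 4.67 for TIMP3, -2.01 for MMP2 and -3.84 for MMP14. Between the PTX libraries, MMP1 (3.10), MMP3 (2.45), MMP14 (4.66) and TIMP3 (3.37) were higher in 8505C-PTX and no member was lower; of all genes, 3.70% were higher and 4.09% lower (7.79% in all). Between SW1736-PTX and 8505C wt, MMP2 was higher and MMP1, MMP3 and MMP14 were lower among 7 members compared, beside 15.1% and 5.23% of all genes (20.4% in all). These comparisons share libraries with those of PTX and wt cells and are not independent of them.

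Among the other 18 MMP and TIMP genes, 10 were above 0.5 FPKM in at least 1 library. Of the 9 compared in SW1736, 5 were called up and 2 down, beside 15.7% and 10.2% of all compared genes. Of the 9 compared in 8505C, 5 were called up and 1 down, beside 15.0% and 5.89%. Among those called up in SW1736, MMP17, MMP28 and TIMP4 passed the FPKM limit only through the PTX library. So did MMP11, MMP12, MMP25 and MMP28 in 8505C, so these could be compared only because they were high there. MMP16 in SW1736 and TIMP4 in 8505C, both called down, passed it only through the wt library. The median log2 change of the compared genes among these 18 was 1.80 in SW1736 and 1.55 in 8505C. That of all genes compared was 0.01 and 0.11. MMP28, or epilysin, was listed at 0 in both wt libraries and at 9.93 FPKM in SW1736-PTX and 7.07 in 8505C-PTX, with log2 changes of 6.65 and 6.16. With the pseudocount of 0.1, MMP28 had the largest increase of the family in 8505C. With a pseudocount of 1 its change there was 3.01, below the 3.78 of TIMP3. Against 8505C wt the log2 difference of SW1736-PTX was also 6.65, which follows from the value of 0 in both wt libraries. MMP15, a membrane-type MMP related to MMP14, was at 3.74 FPKM in parental SW1736, 13.3 in SW1736-PTX, 3.24 in parental 8505C and 17.6 in 8505C-PTX. Both PTX libraries exceeded both wt libraries, with log2 changes of 1.80 and 2.41.

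The other membrane-type genes went different ways. MMP16 was at 3.76 FPKM in parental SW1736, 0.0109 in SW1736-PTX, 3.81 in parental 8505C and 1.61 in 8505C-PTX, and its change of -5.12 was called in SW1736 but that of -1.19 in 8505C was not. MMP24 was at 6.07, 0.859, 0.133 and 0.535 FPKM across the libraries in this order, with a change of -2.69 in SW1736 and of 1.45, short of a call, in 8505C. Against 8505C wt, MMP24 was higher in SW1736-PTX by 2.04 on the log2 scale. MMP24-AS1, an antisense gene that overlaps it and was at 45.4, 43.4, 20.3 and 43.1 FPKM, may have shared reads with it, since the use of strand in counting is not given in the sources used here. MMP17 was at 0, 0.736, 0.255 and 0.163 FPKM and was up-regulated in SW1736 (3.06), a call lost with a pseudocount of 0.5 (1.31). MMP25 was at 0.391, 1.16, 0.227 and 0.882 FPKM and was called in 8505C (1.59), while its change in SW1736 was 1.36; it overlaps the antisense gene MMP25-AS1, at 1.36, 1.34, 0.515 and 2.19 FPKM.

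MMP11, or stromelysin 3, was at 0.514 FPKM in parental SW1736, 1.59 in SW1736-PTX, 0.46 in parental 8505C and 3.41 in 8505C-PTX. It was up-regulated in 8505C (2.65), and the change of 1.46 in SW1736 was short of a call. MMP12 was up-regulated in 8505C with a change of 1.55. With changes centred on the median of all genes, MMP12 (1.44) and MMP25 (1.48) were no longer called in 8505C, nor with a pseudocount of 0.5 (0.99 and 0.93). MMP8, MMP20, MMP21, MMP26 and MMP27 were listed at 0 in all 4 libraries, and MMP19, MMP23A and MMP23B stayed at or below 0.5 FPKM.

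TIMP2, which inhibits MMP2 and also helps MMP14 to activate it, was at 106 FPKM in parental SW1736, 389 in SW1736-PTX, 162 in parental 8505C and 401 in 8505C-PTX. Its log2 change of 1.88 was called in SW1736 and that of 1.31 in 8505C was not. TIMP4 was at 0.264, 1.54, 0.517 and 0 FPKM across the libraries in this order and was called in opposite directions, with changes of 2.17 in SW1736 and -2.62 in 8505C. These levels rest on about 15, 106, 27 and 0 reads, and both calls were lost with a pseudocount of 0.5. Of the 13304 genes compared in both lines, 1.08% were called in opposite directions.

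**Figure D3:**
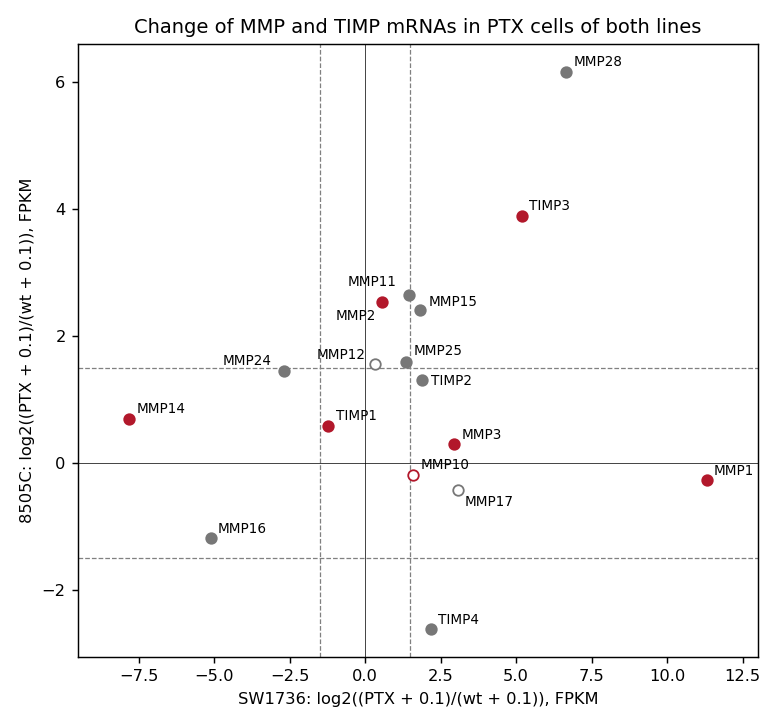
Log2 change from wt to PTX cells in SW1736 (x axis) and in 8505C (y axis) for the MMP and TIMP genes compared in at least 1 line. Red points are the 10 members and grey points the other family genes, open points were compared in 1 line only, and dashed lines mark changes of 1.5; TIMP3, MMP28 and MMP15 lie beyond the threshold in both lines.

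The summed mRNA of enzymes and of inhibitors was set side by side on the TPM scale. The summed level of all MMP genes was 398 TPM (FPKM scaled to an equal total per library) in parental SW1736, 643 in SW1736-PTX, 6071 in parental 8505C and 4979 in 8505C-PTX. The summed TIMP level was 1129 TPM, 1259, 721 and 1702 across them. MMP mRNA per TIMP mRNA was thus 0.352 in SW1736 wt, 0.51 in SW1736-PTX, 8.42 in 8505C wt and 2.93 in 8505C-PTX, higher in PTX than in wt cells for SW1736 and lower for 8505C.

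The leading enzyme and the leading inhibitor were different genes in the SW1736 libraries. MMP14 made up 88.2% of the MMP mRNA in SW1736 wt and 0.202% in SW1736-PTX, where MMP1 made up 87.2%. In 8505C, MMP1 made up 99.1% in wt and 97.2% in PTX cells. TIMP1 made up 78.5% of the TIMP mRNA in parental SW1736 but 29.1% in SW1736-PTX, and TIMP2 was the most abundant inhibitor in the other 3 libraries, with 68.1% in SW1736-PTX, 51.3% in 8505C wt and 52.4% in 8505C-PTX. TIMP3 made up 3.18% in 8505C wt and 19.7% in 8505C-PTX. Without MMP1, MMP mRNA per TIMP mRNA was 0.352 in SW1736 wt and between 0.0655 and 0.0823 in the other libraries.

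**Figure D4:**
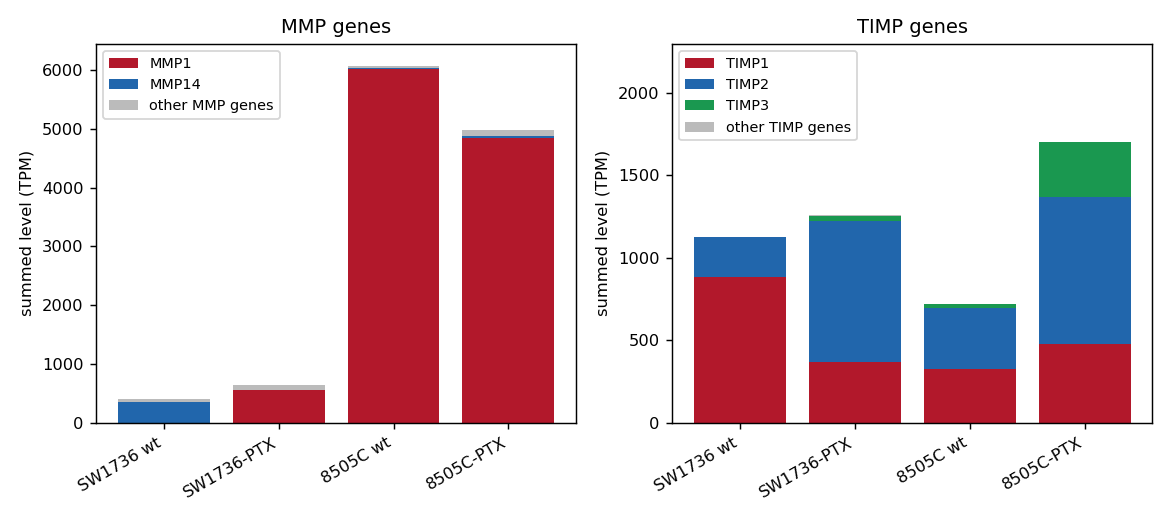
Summed level in TPM of the MMP genes (left) and of the TIMP genes (right) in each library, with bars stacked by gene and starting at 0; the 2 panels have different scales. MMP1 fills nearly all of the MMP bar in both 8505C libraries, and MMP14 most of it in SW1736 wt.

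Lists of genes that act on MMPs were compared in the same way, and the background shares of calls are those given for the members. Of 20 genes that activate or restrain MMPs at the cell surface, 14 were compared in either line. In SW1736, 4 were up-regulated and 1 was down-regulated, and the counts were the same in 8505C. TFPI2, a secreted inhibitor of serine proteases, was up-regulated in both (log2 change 2.61 in SW1736 and 1.85 in 8505C). RECK, a membrane-anchored MMP inhibitor, went from 2.86 to 11.8 FPKM in SW1736, a change of 2.00. CTSL, a lysosomal cysteine protease, had a change of 2.20 in SW1736, and CTSK one of 1.78 in 8505C. CTSK passed the FPKM limit there only through the PTX library.

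The AP-1, ETS and RUNX2 factors, which bind promoters of MMP genes, had medians of -0.07 in SW1736 and 0.26 in 8505C. FOSL1, an AP-1 subunit, was down-regulated in both lines, from 423 to 54.0 FPKM and from 229 to 30.5, with changes of -2.97 and -2.91. RUNX2 was called in opposite directions, -1.79 in SW1736 and 2.07 in 8505C. Of 14 genes compared in SW1736, FOS (1.79) was the 1 up-regulated, and ETS2 was down-regulated with FOSL1 and RUNX2. Of 13 in 8505C, 2 were up-regulated and 2 down-regulated, among them ETS1 (-2.30). FOS in SW1736 and RUNX2 in 8505C passed the FPKM limit only through the PTX library.

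Of 16 inducers of MMP transcription, 13 were compared in either line; 7 were called up and 1 down in SW1736, against 3 and 4 in 8505C. PTGS2, the inducible cyclooxygenase, was up-regulated in both (7.16 and 2.79), as were EGF (3.96 and 3.22) and TGFB2 (2.20 and 3.44). AREG, a ligand of the EGF receptor, was at 0.134 FPKM in parental SW1736, 3.18 in SW1736-PTX, 15.1 in parental 8505C and 0.511 in 8505C-PTX, and was called in opposite directions. LIF fell from 47.1 to 0.106 FPKM in SW1736 (-7.84), and EREG from 2.0 to 0.016 in 8505C (-4.18). The median change of this list was 1.85 in SW1736 and -0.10 in 8505C. Of the genes named here, EGF in both lines, and PTGS2 and AREG in SW1736, passed the FPKM limit only through the PTX library. LIF in SW1736 and EREG in 8505C passed it only through the wt library.

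The ADAM and ADAMTS genes, metalloproteinases related to MMPs, were mixed. Of 27 genes, SW1736 allowed 19 to be compared (7 called up, 5 down) and 8505C 15 (4 and 3). ADAMTS2, ADAMTS10, ADAMTS13 and ADAMTS15 were up-regulated in both lines, with changes from 2.39 to 4.84 in SW1736 and from 2.09 to 5.09 in 8505C. ADAMTS10 and ADAMTS13 passed the FPKM limit only through the PTX library in both lines, as did ADAMTS2 in 8505C. ADAM12 and ADAMTS1 were down-regulated in both; ADAMTS1 was at 78.2 and 3.17 FPKM in SW1736 and at 65.7 and 8.16 in 8505C. ADAMTS5, an aggrecanase, was down-regulated in SW1736 (-5.07). ADAM12 in both lines and ADAMTS5 in SW1736 passed the limit only through the wt library.

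Among matrix proteins that MMPs cleave, calls were more often down in SW1736 and up in 8505C. Of 20 genes, SW1736 allowed 18 to be compared (3 called up, 8 down; median -0.92) and 8505C 17 (9 and 1; median 1.56). COL3A1, COL5A1 and NID1 were up-regulated in both, with COL3A1 at 0.132 and 99.8 FPKM in the SW1736 libraries and at 1.17 and 58.1 in those of 8505C. COL1A1, a substrate of MMP1 and MMP14, was called in opposite directions: it was at 153 FPKM in parental SW1736 and 2.19 in SW1736-PTX, and in 8505C it was at 0.217 FPKM in the parent and 5.13-fold higher in PTX cells. COL7A1, FN1 and HSPG2 were also down-regulated in SW1736 and up-regulated in 8505C. VCAN had a change of -6.02 in SW1736 and LAMA3 one of 3.56 in 8505C. COL3A1 in SW1736, and COL1A1 and COL7A1 in 8505C, passed the FPKM limit only through the PTX library. VCAN in SW1736 passed it only through the wt library. Against 8505C wt, SW1736-PTX had 7 of 18 matrix genes higher and 1 lower.

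**Figure D5:**
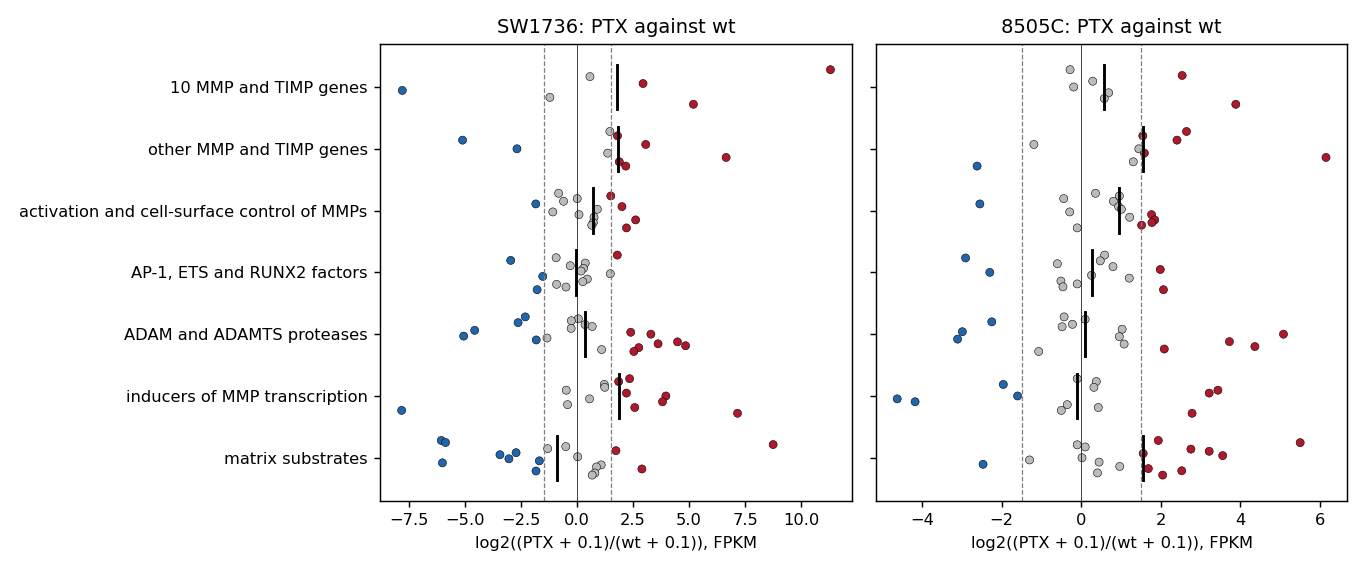
Log2 change from wt to PTX cells in SW1736 (left) and 8505C (right) for each compared gene of 7 lists, with 1 point per gene, red for up-regulated, blue for down-regulated and grey for not called. Black bars are list medians and dashed lines mark changes of 1.5; the bar of the matrix substrates is at -0.92 in SW1736 and at 1.56 in 8505C.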

How the data were processed

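mRNA of 4 conditions was sequenced with 1 library each. The study's methods name Cutadapt for adapters, ERNE for trimming by quality, STAR for alignment of the 75 bp single-end reads to hg38 and StringTie for the level of each locus; the annotation and strand setting are not given in the sources used here. The authors' deposited tables hold, per gene, a coverage signal per base that is not scaled for depth, the FPKM, and the TPM scaled to an equal total. They hold no read counts.

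Rows of 1 gene name were summed (MMP11 and MMP28 have a second row on an alternate contig, at 0). The limits of 0.5 FPKM and 1.5 on the log2 scale are those of the study, applied to at least 1 library of the pair. Aligned bases were taken as the highest ratio of coverage to FPKM, and approximate reads as coverage times the GENCODE release 44 MANE transcript length over 75, given where a gene's ratio was within 2% of that maximum; intervals (exact Poisson, 95%) and the floor of 3 reads cover counting error only. Alternatives changed the pseudocount, the FPKM limit, unit, centring, repeated rows, threshold and the wt library set against SW1736-PTX. The calling step was run on simulated levels with planted changes and counting error only. That run checked the code, and did not cover genes at 0 in wt cells, changes near the threshold or differences between cultures. The members and gene lists were chosen with earlier results of these data known. The text names every member, every other MMP or TIMP gene above 0.5 FPKM, and the genes of each list called in both lines or among the 3 largest changes of a line, except genes that are not reported here; PAX8, NKX2-1, KRT19, ETS2, BIRC3, TMEM123 and DCUN1D5 were named after their values were seen. Python 3.11.15, NumPy 2.4.6, pandas 2.3.3, SciPy 1.17.1 and matplotlib 3.10.9 were used.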

Additional observations from a re-analysis of the deposited data

Results flagged for a closer look

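MMP1, MMP14, MMP17, MMP24 and TIMP4 were called in at least 1 line and had a change of the opposite sign in the other; with 1 library per condition, the difference between the lines was not tested. The log2 change of MMP1 was 11.31 in SW1736 and -0.28 in 8505C. MMP14 changed by -7.81 in SW1736 and by 0.69 in 8505C. MMP17, at or below 0.736 FPKM in every library, had a change of 3.06 in SW1736. In 8505C it stayed below 0.5 FPKM and was not compared. Its log2 value of -0.43 there rests on about 27 reads in wt and 21 in PTX cells, with overlapping intervals, so its direction was not resolved. For MMP24 the changes were -2.69 and 1.45. TIMP4 was called in both lines, with 2.17 in SW1736 and -2.62 in 8505C. Set against 8505C wt in place of SW1736 wt, the log2 difference of SW1736-PTX was -3.37 for MMP1, -3.97 for MMP14, 1.24 for MMP17, 2.04 for MMP24 and 1.41 for TIMP4.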

How the results depend on the processing

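Each MMP and TIMP gene compared in a line was recomputed under the alternatives that still allowed it to be compared. Genes dropped by a stricter FPKM limit, and the calls lost with them, are not in the tally that follows. With the wt library of the same line, 292 of the recomputed changes kept their direction and their side of the threshold, 18 were no longer called and 11 became called. None of the called changes reversed with the same wt library. With 8505C wt in place of SW1736 wt, the changes of MMP1 (-3.37), MMP3 (-2.17) and MMP24 (2.04) reversed; 1 member was then up-regulated and 3 were down-regulated in the comparison of SW1736-PTX. With FPKM above 0.5 required in both libraries, 0 members were up-regulated in SW1736, since MMP1, MMP3 and TIMP3 were below it in SW1736 wt. Then 4 MMP and TIMP genes were called in SW1736 and 3 in 8505C, and 1701 and 1609 of all genes. With FPKM above 1 in at least 1 library, 9 MMP and TIMP genes were called in SW1736 and 6 in 8505C. The limit used here gave 11 and 8. MMP3, at 0.666 FPKM in SW1736-PTX, was no longer compared in SW1736 with the limit of 1. A pseudocount of 0.5 or of 1 left 5 MMP and TIMP genes called in 8505C, and a pseudocount of 1 left 2063 genes called over all genes in SW1736 and 1442 in 8505C. A threshold of 1 gave 2 members down-regulated in SW1736 and 5732 and 4892 calls over all genes in the 2 lines, and a threshold of 2 gave 1799 in 8505C. The ratio of summed MMP to TIMP level was the same with TPM and with the largest row per name. Neither alternative could change it, since TPM is FPKM times a constant in each library and the second rows were at 0. No replicate could be left out with 1 library per condition, and no paired analysis by replicate was possible because no condition has a second replicate. A fit that pairs wt and PTX cells within each of the 2 lines was not run, since the lines were not taken as replicates of each other. Genes under about 10 reads, MMP9 in 8505C-PTX and MMP13 among them, were not resolved at this depth.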

Other observations

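The genes whose levels over the 4 libraries were nearest to those of each member were found by the Euclidean distance of log2(FPKM + 0.1), centred per gene, among 14692 genes. With 4 libraries, 1 per condition, this describes these libraries only. CD24, a cell surface glycoprotein, was nearest to MMP1 (distance 2.91), with 0.112 FPKM in parental SW1736, 161 in SW1736-PTX, 375 in parental 8505C and 592 in 8505C-PTX, followed by EPB41L3 (3.58) and ESM1 (4.11). The nearest to MMP3 were GKN2 (0.24), MAGEA2 (0.5) and SMO (0.52), and those to MMP10 were ENG (0.32), HNF4G (0.33) and SLC9A3R2 (0.34). ENG, the TGF-beta co-receptor endoglin, had the order of libraries of MMP10 except that 8505C-PTX was the highest, with 14.6, 49.6, 97.2 and 112 FPKM.

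MMP14, like MMP1 with its larger distances, had no close match: LINC00958 (1.67), CA12 (1.75) and C14orf169 (1.8) were the nearest. CA12, a carbonic anhydrase, was at 4.51, 0, 0.294 and 0.809 FPKM. TIMP3 was nearest to CPE (0.68), PDE3A (0.79) and PLVAP (0.89), each listed at 0 in SW1736 wt and highest in 8505C-PTX. TIMP1 was nearest to RASAL2 (0.04), PDE1C (0.07) and SNORA71E (0.11), and MMP2 to PTPRB (0.1), TRAF3IP2 (0.18) and ZNF554 (0.22).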
